A study of Oryza sativa Japonica Group with 6 samples.

Results

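Seed albumins of the rice allergen family and the alpha-globulin were followed as a group of 6 genes, of which 4 had a row among the 29907 mRNA rows of the expression table. The members were picked by identifier and family. They are the seed allergenic (RA/RAG) albumins LOC_Os07g11330, LOC_Os07g11360, LOC_Os07g11380, LOC_Os07g11410 and LOC_Os07g11510, whose identifiers place them on chromosome 7, and the alpha-globulin gene GLB1, LOC_Os05g41970, on chromosome 5. LOC_Os07g11360 and LOC_Os07g11380 were not matched to a row and were not analysed here.

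The allergenic albumins are small cysteine-rich proteins related to the cereal inhibitors of alpha-amylase and trypsin, and they accumulate in the rice grain. The alpha-globulin is likewise a cysteine-rich storage protein, made on the rough endoplasmic reticulum of the endosperm and laid down in the storage vacuole together with the glutelins. Storage protein genes of the cereal endosperm are switched on during grain filling by factors of the DOF, bZIP and NAC families.

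Messenger RNA levels came from endosperm, which stores the starch of the grain, sampled 10 days after pollination from the Japonica cultivar NingJing1. All plants grew in the field until booting and then went into growth chambers. The high temperature group (n = 3 samples) had 36 °C days with 33 °C nights, and the normal temperature group (n = 3 samples) had 28 °C days with 25 °C nights. No genetic change was part of the design. Whether the samples of a group stem from different plants is not stated in the labels. The p-values therefore reflect the spread among these samples alone, which may be technical.

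Levels were deposited as FPKM, fragments scaled to transcript length and library size, so they can be compared between genes. They summed to between 365035 and 380742 per sample, and the sequencing depth is unknown. Endosperm markers were present in every sample: all 5 of 5 markers had a row, and the summed level ran from 20415 to 20948 FPKM in the heated and from 20277 to 20797 FPKM in the control samples. The glutelin GLUA2 made up 90.2% to 96.7% of that sum, and the other 4 markers, GBSSI, BEIIb, SSIIIa and RPBF, all fell. Abundant rows were not all steady within a group. Of 283 mRNA rows with a mean of at least 100 FPKM, 17 (6.01%) spread at least 10-fold among the 3 samples of a group, and LOC_Os07g11330 and GLB1 were among these 17. Both are therefore given with and without the sample that stands apart. In bulk tissue, fewer cells of a type and less RNA per cell cannot be told apart.

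The albumin LOC_Os07g11510 was less abundant at high temperature by more than the spread between samples. It had 9522, 8821 and 8904 FPKM in normal temperature samples 1, 2 and 3, and 3785, 3421 and 4044 FPKM in high temperature samples 1, 2 and 3. All 3 heated samples thus lay below every control sample, and within each group the values were close. The means were 9082 ± 383 FPKM in normal and 3750 ± 313 FPKM in high temperature (SD, n = 3 each). The log2 fold change was -1.28 with a standard error of 0.07 and a 95% confidence interval of -1.45 to -1.10, a 2.43-fold lower level (limma, Benjamini-Hochberg adjusted p = 0.000237). In the order of all mRNA levels of a sample it stood between place 6 and place 7 in normal temperature and between place 13 and place 14 in high temperature. It alone held 2.38% to 2.57% of all FPKM in normal and 0.917% to 1.06% in high temperature.

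LOC_Os07g11330 was also lower in all 3 heated samples, but 1 of them set most of the size of the difference. Normal temperature samples 1, 2 and 3 had 3564, 3115 and 3359 FPKM, and high temperature samples 1, 2 and 3 had 2035, 102 and 2235 FPKM. High temperature sample 2 stood 21.9-fold under the highest sample of its own group, whereas the normal temperature samples differed by 1.14-fold at most. The means were 3346 ± 225 FPKM in normal and 1458 ± 1178 FPKM in high temperature (SD, n = 3 each). With all 6 samples the log2 fold change of -2.10 had a standard error of 1.26 and did not pass the test (limma, adjusted p = 0.257). Without high temperature sample 2 the heated mean was 2135 ± 141 FPKM (SD, n = 2), and the log2 fold change was -0.65 with a standard error of 0.08 (limma, adjusted p = 0.00727), a 1.57-fold lower level. The other albumins were also lowest in that heated sample, but by far less. LOC_Os07g11510 had 3421 FPKM there, against 3785 and 4044 FPKM in high temperature samples 1 and 3. LOC_Os07g11410 had 502 FPKM, against 535 and 1014 FPKM.

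LOC_Os07g11410 was the least abundant of the 3 albumins measured, and its groups overlapped. It had 934, 1170 and 650 FPKM in normal temperature samples 1, 2 and 3 and 535, 502 and 1014 FPKM in high temperature samples 1, 2 and 3. The highest heated sample lay above the lowest and the middle control sample. The means were 918 ± 261 and 684 ± 286 FPKM (SD, n = 3 each), and the log2 fold change of -0.46 had a 95% confidence interval of -1.35 to 0.43 (limma, adjusted p = 0.368). The interval holds both no change and a fall as large as that of LOC_Os07g11510.

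**Figure D1:**
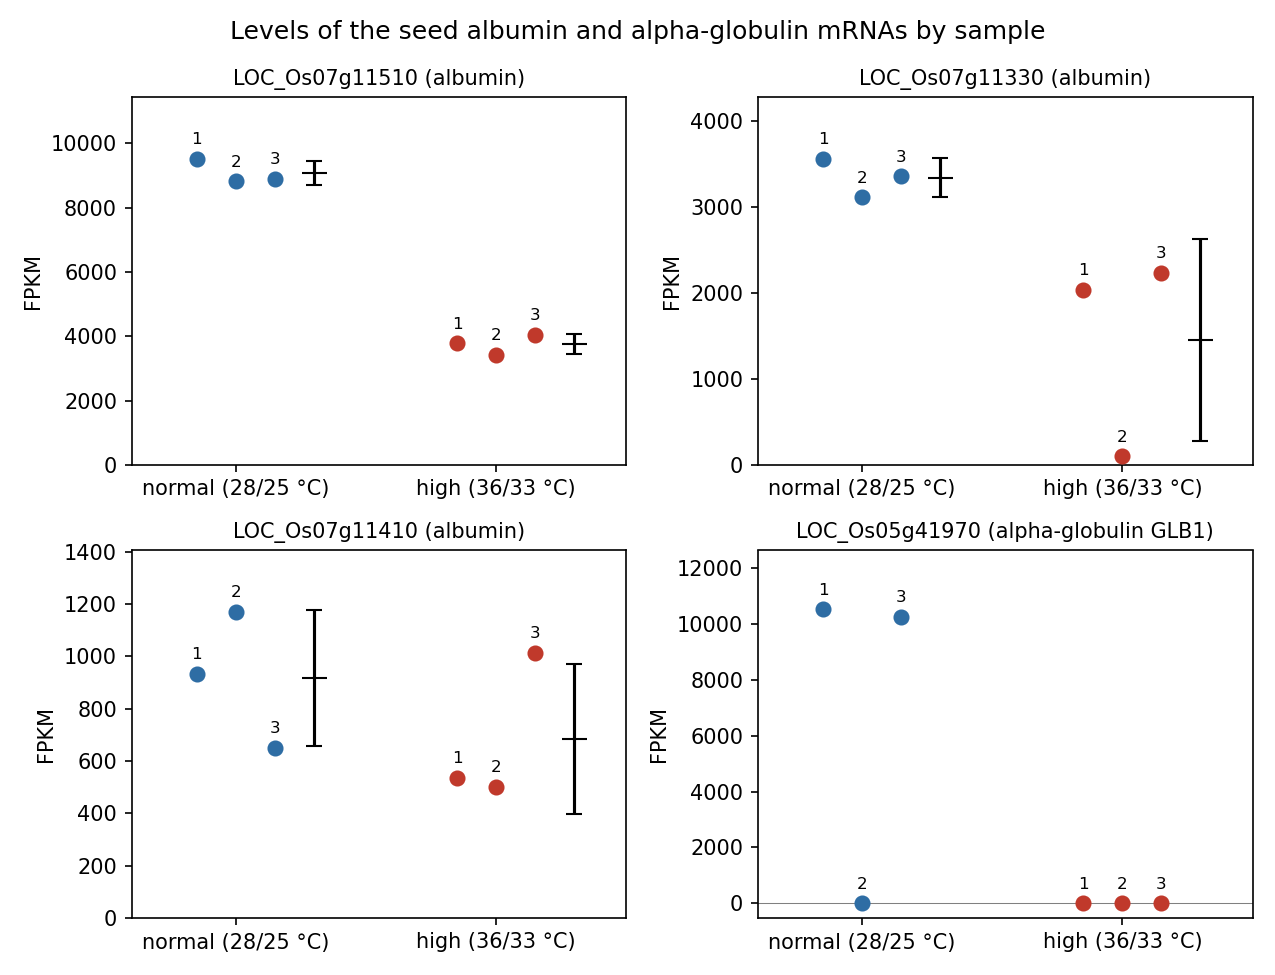
FPKM of the 4 measured genes by sample, with numbered points for samples 1 to 3 of each temperature group and, for the albumins, a bar for mean ± SD. LOC_Os07g11510 separates the groups, LOC_Os07g11330 has 1 heated sample at 102 FPKM, LOC_Os07g11410 overlaps, and GLB1 is at 0 in 4 samples.

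The globulin GLB1 was listed either at 0 or at a very high level. It had 10536 and 10277 FPKM in normal temperature samples 1 and 3, which put it at place 4 and place 5 among all mRNA rows of these samples with 2.85% and 2.82% of all FPKM. It was listed at 0 in normal temperature sample 2 and in high temperature samples 1, 2 and 3. No value lay in between, so the control samples differed among themselves by as much as any control sample did from the heated ones. The difference between the groups did not pass (limma, adjusted p = 0.134), and no fold is given against a group listed at 0. Without normal temperature sample 2, the only control listed at 0, the test passed (limma, adjusted p = 1.62e-06). That pass follows from leaving out this sample because of its value, and it is no evidence of a fall. A listed 0 can be a failed estimate for an abundant transcript, and this was not tested. No other mRNA row that was at 0 in just these 4 samples had a mean of at least 100 FPKM in the other two. The highest of the 123 rows that shared the pattern, LOC_Os09g15044, had a mean of 12.04 FPKM there.

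Among the 4 members tested, 1 was lower in high temperature and none was higher at an adjusted p under 0.05, where 22.8% of the 17050 mRNA genes tested were lower and 13.0% were higher. Of all calls 36.4% were thus higher on the deposited scale, but 52.9% under trimmed-mean scaling and 47.1% when the 100 most abundant rows were left out of the scaling. The single called member is LOC_Os07g11510, and 1 of 4 is close to that background. Without high temperature sample 2 the count was 2 of 4, with 19.4% of all genes called lower, and without normal temperature sample 2 it was 2 of 4 with 19.0%. Without both, a choice made after the values were seen, it was 3 of 4 with 13.8%. The added calls are LOC_Os07g11330 and GLB1, each gained by leaving out the sample that stood apart, so they are no further support. The groups did not overlap, with heat lower, for 2 of 4 members, against 32.5% of all genes tested in that direction and 51.7% in either. The median log2 fold change of the 3 albumins was -1.28, beside -0.08 over all genes tested. With 3 genes this median is the value of LOC_Os07g11510 alone. Without high temperature sample 2 the values of LOC_Os07g11510, LOC_Os07g11330 and LOC_Os07g11410 were -1.21, -0.65 and -0.28, beside a median of -0.09 over all genes. All genes tested had passed a minimum mean level of 0.5 FPKM, GLB1 only through normal temperature samples 1 and 3.

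**Figure D2:**
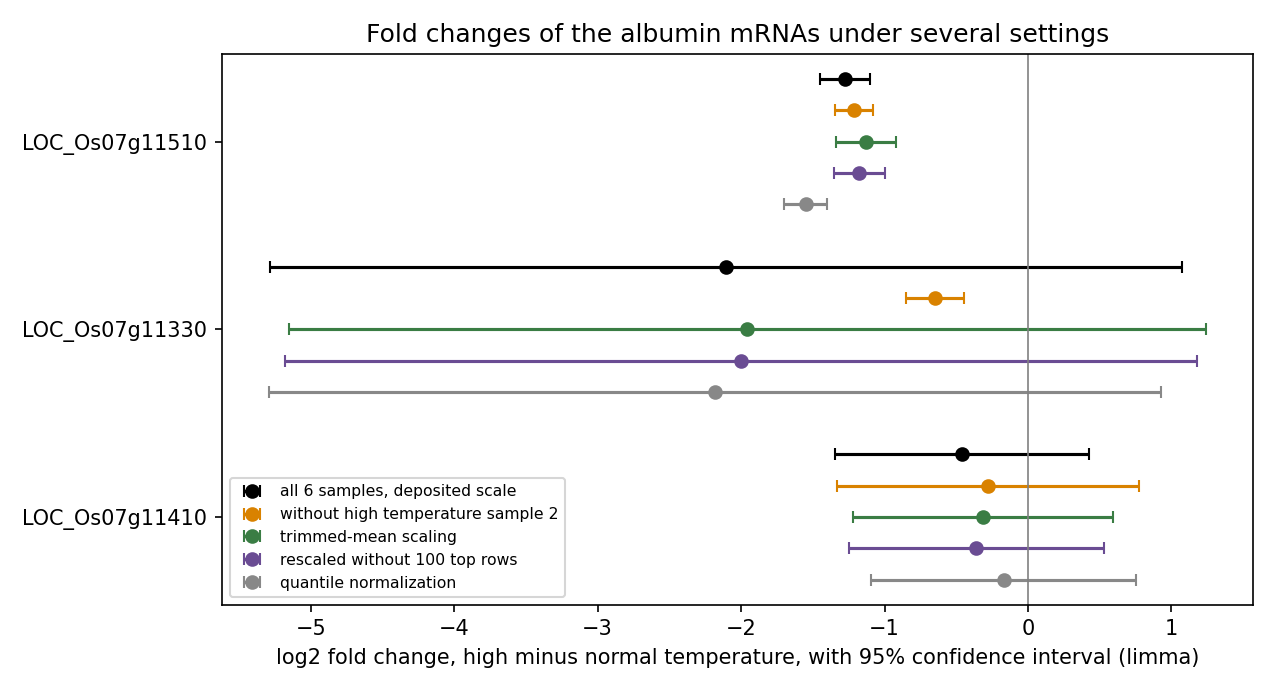
Log2 fold change (x axis, high minus normal temperature) of the 3 albumins with 95% confidence intervals, under 5 settings distinguished by colour. LOC_Os07g11510 stays between -1.55 and -1.13, while LOC_Os07g11330 moves from -2.10 to -0.65 and its interval narrows without high temperature sample 2.

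FPKM is a share of each library, so the abundant glutelins bear on the size of these values. Glutelins held 32.1% to 35.1% of all FPKM in high and 23.1% to 24.9% in normal temperature. When the libraries were rescaled without the 100 most abundant rows, LOC_Os07g11510 had a log2 fold change of -1.18, and after trimmed-mean scaling it had -1.13 (limma, adjusted p = 0.000328 and 0.000642). Trimmed-mean scaling moved the median of all genes by 0.11, from -0.08 to 0.02. Relative to that median LOC_Os07g11510 was at -1.20 on the deposited scale and at -1.15 after that scaling. Direction was the same for all 3 albumins under each of the scalings tried.

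Among abundant transcripts, a comparison chosen after the values were seen, LOC_Os07g11510 lay near the lower end. Of 32 mRNA rows with a mean of at least 1000 FPKM, 14 rose (43.8%) and 7 fell (21.9%), and their median log2 fold change was 0.18. These rows include LOC_Os07g11330, LOC_Os07g11510 and GLB1 themselves. Several of those that rose are glutelins, so this comparison overlaps with the glutelin one below. Ordered by log2 fold change from the lowest, LOC_Os07g11330 was at place 4 and LOC_Os07g11510 at place 6, and of the pair only the latter passed the test. The place of LOC_Os07g11330 rests on high temperature sample 2, without which its log2 fold change was -0.65. GLB1 was at place 1 and did not pass either.

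**Figure D3:**
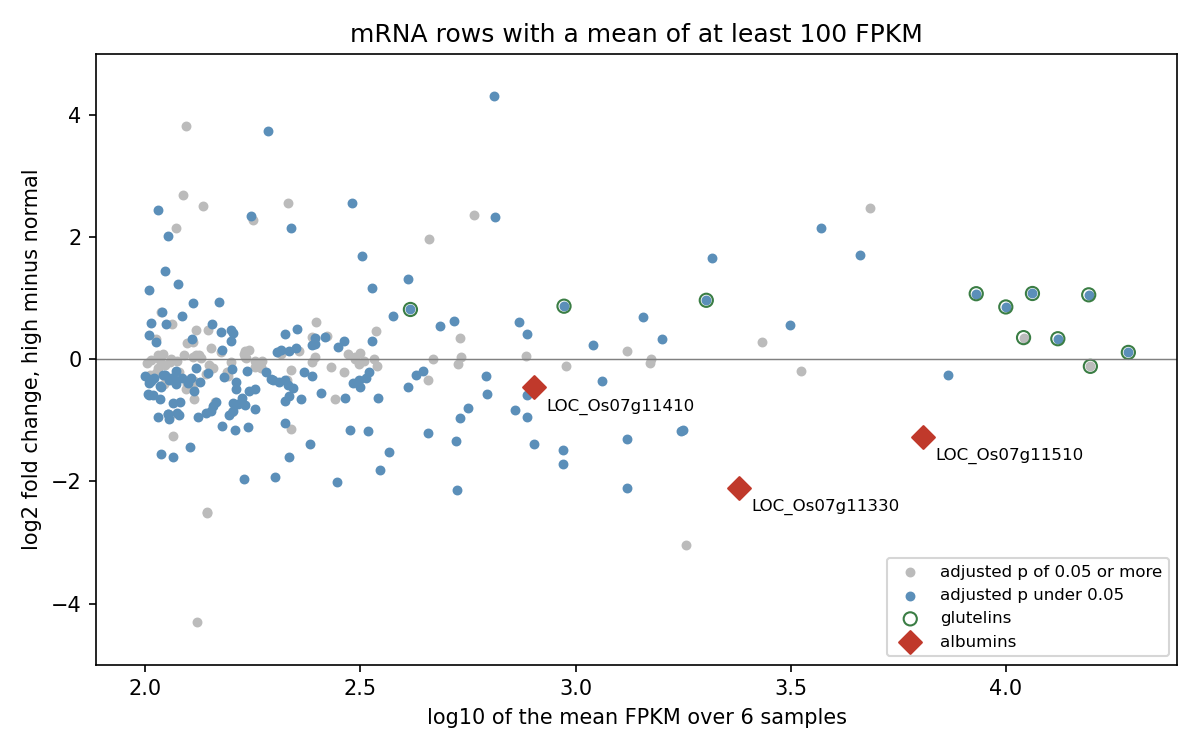
Log2 fold change (y axis) against the log10 mean FPKM over the 6 samples (x axis) for the mRNA rows with a mean of at least 100 FPKM, with 2 rows beyond the y axis (GLB1 is one) left off. The albumins (red diamonds, of which only LOC_Os07g11510 passed the test) lie below 0, and most glutelins (green rings) lie above it.

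As a sum, the albumins were a smaller part of all transcripts in each heated sample than in any control sample. The 3 rows added up to 14020, 13106 and 12913 FPKM in normal temperature samples 1, 2 and 3 and to 6355, 4025 and 7293 FPKM in high temperature samples 1, 2 and 3. As a share of all FPKM the sum was 3.62% ± 0.147 in normal and 1.56% ± 0.430 in high temperature (SD, n = 3 each), with p = 0.10 in a two-sided exact permutation test, the smallest p that 3 against 3 samples allow.

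Glutelins, the major storage proteins of the rice grain, went the opposite way. Of 12 listed, 11 had a row, and 9 rose, none fell and 2 did not pass (limma, adjusted p under 0.05), with a median log2 fold change of 0.86. The largest rises were in GLUB1B (LOC_Os02g15178), GLUB4 (LOC_Os02g16830) and GLUB5 (LOC_Os02g16820), with log2 fold changes of 1.08, 1.07 and 1.06, followed by GLUD (LOC_Os02g15090) with 0.97. GLUA2 (LOC_Os10g26060) and GLUA3 (LOC_Os03g31360) rose on the deposited scale, but quantile normalization gave -0.05 and -0.32 and neither passed. GLUA1 (LOC_Os01g55690) and GLUC (LOC_Os02g25640) were at -0.12 and 0.36 on the deposited scale and at -0.55 and -0.15 after quantile normalization. Of the 11 rows, 7 passed under quantile normalization and 10 under trimmed-mean scaling, all of them higher in heat. Several glutelin genes are near-identical, and the division of reads among them is uncertain.

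Relative to glutelin, there was less albumin transcript in every heated sample than in any control sample. The albumin sum was 15.2%, 14.6% and 15.3% of the glutelin sum in normal temperature samples 1, 2 and 3, and 4.89%, 3.36% and 5.45% in high temperature samples 1, 2 and 3. Since both sums come from the same library, this ratio does not depend on scaling a library by a single factor. It was not computed after quantile normalization, which moves genes by different amounts. On the log2 scale the ratio was -4.48 ± 0.366 in high and -2.73 ± 0.0414 in normal temperature (SD, n = 3 each), a difference of -1.75 with p = 0.10 in the two-sided exact permutation test, again the smallest possible. Leaving out any 1 sample kept the difference between -1.89 and -1.54.

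**Figure D4:**
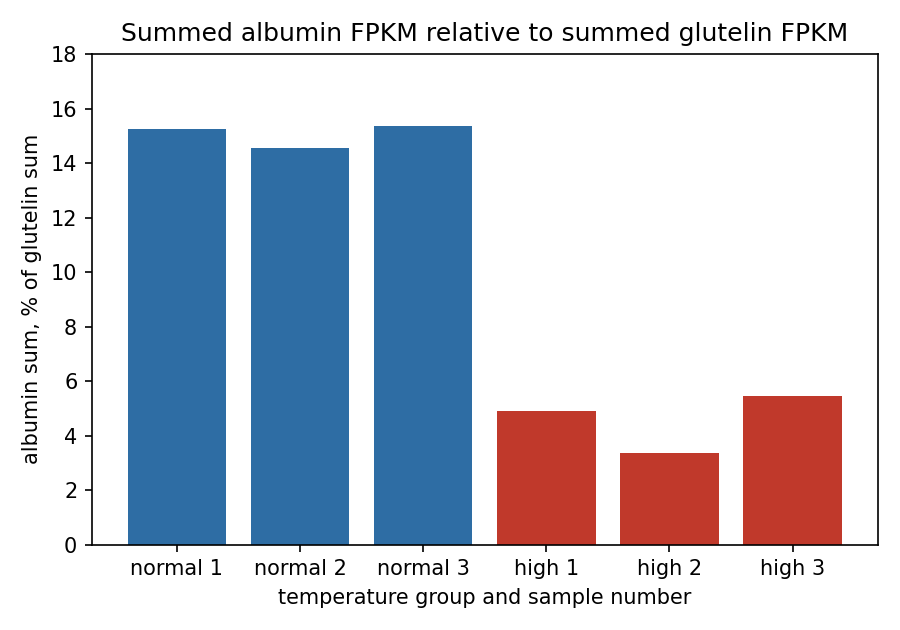
Summed FPKM of the 3 albumin rows as a percentage of the summed FPKM of the 11 glutelin rows (y axis, from 0), 1 bar per sample. Normal temperature samples lie between 14.6% and 15.3%, and high temperature samples between 3.36% and 5.45%.

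The shares of the 2 larger albumins in the albumin sum were closer among the normal than among the high temperature samples. LOC_Os07g11510 held 67.9%, 67.3% and 69.0% of the sum in normal temperature samples 1, 2 and 3 and 59.6%, 85.0% and 55.5% in high temperature samples 1, 2 and 3. The high value is that of the sample in which LOC_Os07g11330 was at 102 FPKM and made up 2.54% of the sum. LOC_Os07g11330 made up 23.8% to 26.0% of it in normal temperature and 32.0% and 30.7% in the other heated samples. The share of LOC_Os07g11410 varied in both groups, with 6.66%, 8.93% and 5.03% in normal and 8.41%, 12.5% and 13.9% in high temperature samples 1, 2 and 3. Between the 3 pairs of albumins the log2 ratio was compared in the same way. LOC_Os07g11410 over LOC_Os07g11510 differed most steadily, with -3.35 ± 0.431 in normal and -2.53 ± 0.462 in high temperature (SD, n = 3 each), and the groups did not overlap (exact permutation p = 0.10, adjusted p = 0.30 over the 3 pairs). For LOC_Os07g11330 over LOC_Os07g11410 and over LOC_Os07g11510 the exact permutation p was 0.20 and 1 (adjusted p = 0.30 and 1). A different response of the albumins to heat was thus not shown, in a design that cannot reach an unadjusted p under 0.10.

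By level, GLB1 where it was listed was the most abundant member, followed by LOC_Os07g11510, LOC_Os07g11330 and LOC_Os07g11410. In normal temperature the ranges of these 4 did not overlap among samples 1 and 3. In high temperature LOC_Os07g11510 was above both other albumins in each sample, while LOC_Os07g11330 was above LOC_Os07g11410 in samples 1 and 3 and below it in sample 2.

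Rows with neighbouring locus numbers were looked at beside the albumins. From LOC_Os07g11200 to LOC_Os07g11700 there were 12 rows besides the members, and 6 were abundant enough to be tested. Of these 1 rose, 2 fell and 3 did not pass, with a median log2 fold change of -0.35. LOC_Os07g11650 was the neighbour with albumin-like abundance, at 1947, 1833 and 1722 FPKM in normal temperature samples 1, 2 and 3. In high temperature it was listed at 0 in samples 1 and 3 and had 483 FPKM in sample 2. Its groups did not overlap, but it did not pass (limma, adjusted p = 0.0659). It passed in only 1 of the 6 fits that each left out 1 sample (limma, adjusted p = 3.12e-05). That fit left out high temperature sample 2, the only heated sample above 0, so the pass follows from that choice. The heated sample in which LOC_Os07g11330 was low is thus the one in which this neighbour was above 0.

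LOC_Os07g11310 had 86.6 and 167 FPKM in normal temperature samples 2 and 3, 106 FPKM in high temperature sample 1 and 0 in the other 3 samples. This pattern does not follow temperature (limma, adjusted p = 0.560). The called neighbours were low rows: LOC_Os07g11280 fell from 1.79 ± 0.0814 to 1.16 ± 0.124 FPKM, LOC_Os07g11490 fell from 11.6 ± 0.285 to 9.07 ± 0.695 FPKM, and LOC_Os07g11300 rose from 1.58 ± 0.175 to 2.31 ± 0.268 FPKM (SD, n = 3 each). LOC_Os07g11490 did not pass under trimmed-mean scaling, with a log2 fold change of -0.19 (limma, adjusted p = 0.0561). On the deposited scale its fall was 1.26-fold, against 2.43-fold for LOC_Os07g11510. LOC_Os07g11300 passed in only 2 of the 6 fits that each left out 1 sample (adjusted p between 0.0381 and 0.0859), and none of these 3 neighbours passed with the replicate number as a block. Members of a tandem family share sequence, and reads may have been split between copies in ways that differ from sample to sample; this was not tested.

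**Figure D5:**
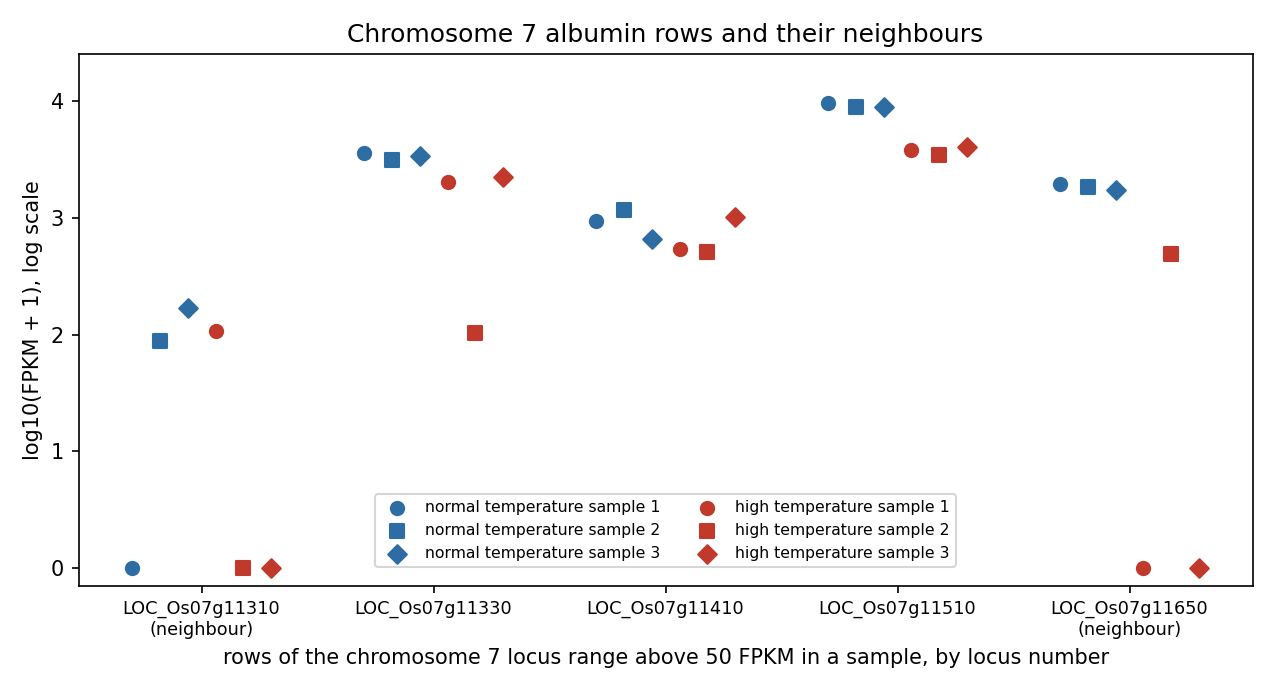
Level as log10(FPKM + 1) of the 3 albumin rows and of 2 neighbours, by sample (colour for temperature, shape for sample number). LOC_Os07g11510 separates the temperatures with little spread, and LOC_Os07g11330, LOC_Os07g11310 and LOC_Os07g11650 each have samples far from the rest of their group.

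Likeness to the albumins was measured as Pearson's r of log2(FPKM + 1) over the 6 samples among the 283 mRNA rows with a mean of at least 100 FPKM. The samples fall into the temperature groups, so a high r mainly repeats that difference, and it is given as a description only. The row most like LOC_Os07g11510 was GBSSI (LOC_Os06g04200), the starch synthase that makes amylose, with r = 0.9996. It had 1442, 1351 and 1347 FPKM in normal and 511, 442 and 525 FPKM in high temperature samples 1, 2 and 3, so the heated samples came in the same order for both genes and control sample 1 was the highest control for both. LOC_Os02g36680 and LOC_Os03g22120 followed with r = 0.998 each.

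The rows most like LOC_Os07g11330 were LOC_Os07g10720, LOC_Os08g03640 and LOC_Os06g05880, with r = 0.997, 0.996 and 0.992. What they share with it is that high temperature sample 2 is the lowest sample, though the depth differs. LOC_Os07g10720 had 134, 60.8 and 140 FPKM in high temperature samples 1, 2 and 3 and 143 to 151 FPKM in normal temperature. LOC_Os08g03640 had 180, 152 and 185 FPKM in these heated samples, where LOC_Os07g11330 had 2035, 102 and 2235 FPKM. LOC_Os07g11410 had no close match. Its nearest row was the glutelin GLUA1 (LOC_Os01g55690) with r = 0.798, which had 19438, 19108 and 10611 FPKM in normal and 15636, 10263 and 19317 FPKM in high temperature samples 1, 2 and 3. In both genes control sample 3 was the lowest control and heated sample 3 the highest heated sample.

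Among regulators of storage protein genes, 2 of 5 fell, none rose and 3 did not pass, with a median log2 fold change of 0.07. RPBF (LOC_Os02g15350), a DOF factor that binds the prolamin box of storage protein promoters, fell by 0.70 on the log2 scale, and NAC26 (LOC_Os01g29840) fell by 0.56 (limma, adjusted p = 0.000450 and 0.000269). The bZIP factor RISBZ1 (LOC_Os07g08420) had 31.6, 29.7 and 28.9 FPKM in high temperature samples 1, 2 and 3 and 24.0, 23.6 and 41.5 FPKM in normal temperature samples 1, 2 and 3. It did not pass with all samples (limma, adjusted p = 0.852). Without normal temperature sample 3, its only control above the heated samples, the log2 fold change was 0.32 (limma, adjusted p = 0.0213), which makes 3 called regulators. That pass follows from leaving out this sample because of its value, and it is no evidence of a rise. REB (LOC_Os03g58250), a bZIP factor known to bind the alpha-globulin promoter, had 4.73, 2.18 and 2.34 FPKM in high temperature samples 1, 2 and 3 and 1.80, 1.69 and 2.16 FPKM in normal temperature samples 1, 2 and 3. The groups did not overlap, though the nearest values were close, and it did not pass (limma, adjusted p = 0.218).

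Genes that fold storage proteins or carry them to the vacuole changed both ways. Of 9 tested, 3 rose, 4 fell and 2 did not pass, with a median log2 fold change of 0.01. The chaperone BIP1 (LOC_Os02g02410) had 594, 401 and 415 FPKM in high temperature samples 1, 2 and 3 and 275 to 295 FPKM in normal temperature, and rose by 0.71 on the log2 scale (limma, adjusted p = 0.0216). It passed in only 3 of the 6 fits that each left out 1 sample, and not without any 1 normal temperature sample (adjusted p between 0.0558 and 0.0669). Among genes of oxidative folding, which forms the disulfide bonds of cysteine-rich proteins, PDIL2-3 (LOC_Os09g27830) rose by 0.44 and ERO1 (LOC_Os03g52340) by 0.36 on the log2 scale (limma, adjusted p = 0.000747 and 0.00253). The disulfide isomerase PDIL1-1 (LOC_Os11g09280), measured on the deposited scale, fell by 0.28 on the log2 scale, whereas quantile normalization gave 0.01. Of the sorting genes, GPA3 (LOC_Os03g61950), which acts in transport to the storage vacuole, fell from 6.20 ± 0.200 to 3.71 ± 0.115 FPKM (SD, n = 3 each). GOT1B (LOC_Os03g11100), which acts in export from the endoplasmic reticulum, had a log2 fold change of -0.45 (limma, adjusted p = 0.0150) and did not pass under trimmed-mean scaling (adjusted p = 0.0526).

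Markers of other grain tissues were read in the same libraries. Of 5 embryo and aleurone markers, 4 had a row, 2 rose (RAB16A and VP1) and none was at 0 in any sample. Their summed level was 837 to 937 FPKM in high and 114 to 615 FPKM in normal temperature. That sum is mainly the oil body protein gene OLE16b, with 649 to 679 FPKM in the heated samples and 112, 569 and 74.3 FPKM in normal temperature samples 1, 2 and 3. OLE16b did not pass (limma, adjusted p = 0.107). Of the fits that each left out 1 sample, it passed only without normal temperature sample 2, with a log2 fold change of 2.84 (limma, adjusted p = 0.00216). That sample is the control nearest the heated level, so the pass follows from that choice. The dehydrin gene RAB16A rose from 27.1 ± 1.26 to 150.2 ± 10.8 FPKM (SD, n = 3 each). VP1 did not pass when any 1 sample was left out. All 6 green pericarp markers had a row and none was at 0; 1 fell (CAB2R) and 5 did not pass, and the summed level was 142 to 192 FPKM in high and 201 to 245 FPKM in normal temperature. Of the 5 endosperm markers, 4 fell, among them GBSSI with a log2 fold change of -1.49, and GLUA2 rose by 0.11 on the deposited scale. These differences lay between the same samples as the fall of LOC_Os07g11510, and their part in it was not tested.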

How the data were processed

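Total RNA of 6 endosperm samples was depleted of ribosomal RNA and sequenced in pairs, per the labels' protocols. HISAT2 2.0.4, StringTie 1.3.0, cutadapt 1.10 and FastQC 0.10.1 are listed, without roles, per the submitters' processing notes. For genome build, annotation and strand setting nothing is given in the sources used here. The authors' deposited unit is FPKM, per the file headers, with 1 column per sample. Of low values, 18.3% were a whole multiple (tolerance 0.1) of the lowest value of their gene, against 20% by chance. This check did not correct for library size, so it cannot decide whether reads could be recovered. FPKM is not a count, and no count model was run.

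Tests used limma 3.58.1 in R 4.3.3 on log2(FPKM + 1), two-sided, with a trended prior variance, no replicate block and Benjamini-Hochberg adjustment over the 17050 mRNA rows with a mean of at least 0.5 FPKM. Fold changes on this scale understate changes of low genes. Sums and ratios used exact permutation tests (scipy 1.17.1). The 5 albumins of the design enter sums as the 3 with a row. Alternatives covered pseudocount, filter, scaling, prior, block and omitted samples. On data simulated for high against normal temperature with 17050 genes, 47.8% of 67 changes of 0.5, 67.2% of 67 of 1 and 87.9% of 66 of 2 (log2) were recovered, and 7 of 142 calls were false. The simulation used normally distributed noise and changed only these genes, all with a mean log2(FPKM + 1) above 2. They are far fewer than the 6109 genes called in the real data, so the rates need not hold there.

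The members and lists were chosen with earlier results of these data known. Named genes are all members, up to 4 called genes per list and all locus-range neighbours that matter to a count. The 3 rows most like each albumin are also named. GLUA2, GLUA3, GLUC, ERO1, REB, RISBZ1, PDIL1-1, OLE16b and other markers that did not pass were named after their values were seen. Member names come from the choice of members, and list symbols were assigned by hand. RefSeq's gene table for assembly ASM3414082v1 has no LOC_Os identifiers. Of 40 list symbols, 23 occur there exactly once, each on the chromosome that the identifier names. The table gives RA or RAG symbols to 3 genes, which were not paired with the identifiers, and gives GLB1 to a gene that was not paired with LOC_Os05g41970. No sequences were at hand. Same-numbered samples did not deviate together (r of -0.0171, -0.0028 and 0.0039 over 17050 genes). An r over all genes does not settle whether they were paired, and the labels state no pairing.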

Additional observations from a re-analysis of the deposited data

How the results depend on the processing

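LOC_Os07g11510 was lower and past the threshold under all 16 alternatives, with log2 fold changes of -1.55 to -1.13 and adjusted p of 0.000103 to 0.00738 (limma). LOC_Os07g11410 did not pass under any of the 16, at -0.78 to -0.08. LOC_Os07g11330 passed only without high temperature sample 2 (-0.65) and without sample 2 of both groups (-0.70). GLB1 passed only without normal temperature sample 2 (adjusted p = 1.62e-06) and without sample 2 of both groups (adjusted p = 0.000185). The cause was not tested. Called members then numbered 2, 2 and, without both, 3. Both GLB1 passes kept only the controls in which it was listed high, so they follow from the choice of sample.

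Leaving out 1 sample at a time gave 1 to 2 called members, 4961 to 5137 called genes of all, log2 fold changes of -1.33 to -1.21 for LOC_Os07g11510, -2.87 to -0.65 for LOC_Os07g11330 and -0.78 to -0.27 for LOC_Os07g11410, and adjusted p of 1.62e-06 to 0.2997 for GLB1. The albumin share differed by -2.24 to -1.83 percentage points (-2.06 with all samples) and the log2 albumin to glutelin ratio by -1.89 to -1.54. With a denominator lacking the 100 most abundant rows, members kept, the share difference was -3.33. Of all mRNA genes, 6109 were called, 3134 with a minimum mean of 5 FPKM, where fewer were tested, and 3789 without sample 2 of both groups.

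With the replicate number as a block, LOC_Os07g11510 passed (adjusted p = 0.00732), 1 member was called, and 0 of 6 chromosome 7 neighbours passed, against 3 without it. As far as the labels state, same-numbered samples share only a number (r of -0.0171, -0.0028 and 0.0039). The block changed no other member's call. Depth is unknown, and with 3 samples a group the precision is that of their spread.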
